A study of Homo sapiens with 208 samples.

Results

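A set of 10 genes that mark or drive epithelial to mesenchymal transition was followed over 24 h in PC9, a lung adenocarcinoma line sensitive to the EGFR inhibitor gefitinib, and in its resistant derivative PC9M2 (labelled PC9GRM2). They are the cadherins CDH1 and CDH2 with their partner CTNNA1, the mesenchymal structural genes VIM and FN1, and the transcription factors SNAI1, SNAI2, TWIST1, ZEB1 and ZEB2. The members were taken by name, through the RefSeq accession of each probe, and they made up 10 genes with 15 probes among 16961 genes with a named probe. EGFR carries an activating deletion in PC9. Its derivative PC9M2 is 1 clone selected by long exposure of PC9 to low gefitinib and for an appearance like that of PC9. After 48 h of starvation, the cells were left without treatment or received 0.5 μM gefitinib (spelled gefinitib in the labels), 100 ng/ml EGF, or both. Samples for RNA came from 26 time points, the first at 0 h and the last at 24 h, and gefitinib was added ahead of the 0 h samples. Each of the 8 courses had 1 array per time point and no replicate cultures. The time points therefore stood in for replicates, and p-values measure only the spread of these arrays. Levels are log2 signals after quantile normalization, and a difference was called when its p, adjusted over all tested genes, was under 0.05.

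In epithelial to mesenchymal transition, epithelial cells loosen their junctions and take on the cytoskeleton, matrix and motility of mesenchymal cells. E-cadherin (CDH1) holds epithelial cells together and is tied to actin through the catenins, and its gene is a classical target of repression by the SNAI, ZEB and TWIST factors through E-box sequences. In EGFR-mutant lung cancer, a mesenchymal state is a known companion of resistance to EGFR inhibitors.

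VIM and FN1 moved in opposite directions under gefitinib, so the stretch before the start site of each is shown. RefSeq promoter entries (GRCh38.p14) were at hand for 6 of the 10 members. The VIM stretch is chr10:17227991-17228240 on the plus strand and the FN1 stretch is chr2:215436069-215436318 on the minus strand, each read 5′ to 3′ over the 250 bases before the annotated start. Capitals mark matches, on either strand, to a cyclic AMP response element (TGACGTCA) and a CCAAT box (CCAAT); the SNAI and ZEB type E-box (CACCTG or CAGGTG) and the AP-1 site (TGANTCA) were also searched.
VIM: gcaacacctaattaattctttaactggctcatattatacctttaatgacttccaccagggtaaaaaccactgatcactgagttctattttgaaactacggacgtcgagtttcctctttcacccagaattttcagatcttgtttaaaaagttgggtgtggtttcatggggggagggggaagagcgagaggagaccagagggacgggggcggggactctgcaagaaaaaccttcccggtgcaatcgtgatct
FN1: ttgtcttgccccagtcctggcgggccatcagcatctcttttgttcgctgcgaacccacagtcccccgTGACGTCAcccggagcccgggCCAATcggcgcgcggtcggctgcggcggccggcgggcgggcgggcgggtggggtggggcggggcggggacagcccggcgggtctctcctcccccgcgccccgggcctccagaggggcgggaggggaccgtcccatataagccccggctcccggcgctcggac
The FN1 stretch held 1 cyclic AMP response element, from 183 to 176 bases before the start, and 1 CCAAT box, from 162 to 158 bases before it. None of the 4 motifs matched the VIM stretch, and neither stretch held the E-box or the AP-1 letters. Of 35116 promoter windows of the same length, 1.65% held the cyclic AMP response element, 32% the CCAAT box, 17.5% the E-box and 6.57% the AP-1 site.

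The number of features well above background ranged from 24464 to 35938 per array, and every array was within the scanner software's quality range. Between 183 and 1616 features were saturated on each array of PC9 and 0 on those of PC9M2, a difference in scanning that goes with the line. Apart from the arrays next to the first of them, 3 arrays resembled their neighbours in time least, namely PC9M2 without treatment at 11 h, PC9 with gefitinib at 16 h and PC9 without treatment at 18 h, with mean correlations of 0.945, 0.959 and 0.961 over the tested genes. The comparisons were therefore repeated without these 3 time points. The 4 treatments of a line at a time point shared a slide, whereas the lines shared no slide and no scan day, so that line and scan period cannot be told apart. Of 8 markers of lung adenocarcinoma epithelium, 6 were well above background on most arrays of each line, with the keratins KRT7, KRT8, KRT18 and KRT19 and EPCAM so on all. The lung lineage factor NKX2-1 was so on 9 of 104 arrays of PC9 and 4 of 104 of PC9M2 and the surfactant gene SFTPB on 46 and 43. Of the markers of other cell types with a probe, 0 of 5 of fibroblasts, 2 of 3 of endothelium and 2 of 4 of leukocytes were well above background on most arrays of each line. The endothelial genes were PECAM1, on 103 and 104 arrays of PC9 and PC9M2, and VWF, on all. The leukocyte genes CD79A and CD14 were so on all arrays. The remaining endothelial gene CDH5 was so on 18 and 16, and the leukocyte genes CD3E on 52 and 32 and PTPRC on 1 and 0.

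SNAI1 (probe A_23_P131846), the gene of the zinc finger repressor Snail, fell over time in untreated PC9 cells and rose from its 0 h level with gefitinib. Without treatment, its log2 signal had a lowest value of 7.50, a median of 8.51 and a highest value of 9.83, and the highest was at 0 h. With gefitinib the lowest was 9.03, the median 10.44 and the highest 11.08. At 0 and 0.5 h the gefitinib sample was below the untreated one, from 1 h on it was above it at every time point, and from 9 h on the 2 courses did not overlap. The fitted gefitinib curve spanned 1.40, from its bottom at 0 h to its top at 12 h (adjusted p = 6.87e-06). The mean difference was 1.76 ± 0.19 on the log2 scale (SE, n = 26 time points; 3.38-fold; limma, adjusted p = 2.95e-09), with gefitinib higher at 24 of 26 time points. It grew from 0.69 over 0 to 8 h to 2.42 over 9 to 16 h and 2.43 over 17 to 24 h, and its slope was 0.11 ± 0.01 per hour (adjusted p = 2.07e-07). In EGF-treated PC9 cells the gefitinib difference was 1.84 ± 0.23 (adjusted p = 2.78e-08).

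In PC9M2 cells the same gene answered gefitinib less. The untreated course ran from 7.40 through a median of 8.38 to 9.88, and the gefitinib course from 8.52 through 9.37 to 10.00. These courses overlapped, although gefitinib was again higher at 24 of 26 time points, all but 0 and 0.5 h. The mean difference was 0.67 ± 0.10 (1.59-fold; adjusted p = 1.16e-06), and it rose from 0.16 over 0 to 8 h to 1.19 over 17 to 24 h. Over the first 13 time points alone it was 0.24 and was not called (adjusted p = 0.0543). With EGF present it was 0.73 ± 0.12 (adjusted p = 2.54e-06). The level also dipped in all 4 courses of PC9M2 from 10 to 15 h, time points scanned on 2 days of their own: between 9 and 10 h it went from 8.83 to 8.04 without treatment and from 9.33 to 8.56 with gefitinib, and between 15 and 16 h from 7.55 to 8.68 and from 8.69 to 9.29. The gefitinib difference in PC9M2 minus that in PC9 was -1.09 ± 0.12 (adjusted p = 1.22e-07), negative at 23 of 26 time points. Of all 13263 genes tested, 34% were called in this comparison of the drug effects between the lines, and 2 of the 7 tested members were.

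The other called member was SNAI2 (probe A_23_P169039), the gene of the related repressor Slug. In PC9 its untreated level ran from 6.17 through a median of 7.41 to 9.10 and its level with gefitinib from 8.27 through 8.99 to 10.22. From 8.44 at 0 h the untreated level came to 6.30 at 24 h, while the gefitinib course went from 8.27 to 8.79. The 2 courses did not overlap from 9 h on. By the F-test of a spline, the gefitinib course did not change over time (fitted span 0.84, adjusted p = 0.076). It was called with a spline of 6 degrees of freedom (1.19, adjusted p = 0.00697). The mean difference was 1.52 ± 0.14 (2.87-fold; adjusted p = 2.94e-10), higher at 25 of 26 time points, and 1.54 ± 0.16 with EGF present (adjusted p = 1.41e-09). It widened by 0.09 ± 0.01 per hour (adjusted p = 5.84e-08).

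In PC9M2, SNAI2 lay higher from the start. Its untreated level ran from 8.44 through 9.20 to 9.74 and its gefitinib level from 8.44 through 10.10 to 10.99. Gefitinib lay below the untreated cells at 4 of the early time points, above them from 3 h to the end, and apart from them without overlap from 9 h on. The mean difference was 0.80 ± 0.13 (1.74-fold; adjusted p = 6.17e-06), and 0.78 ± 0.15 with EGF (adjusted p = 2.58e-05). Over the first 13 time points alone these were 0.38 and 0.33 and were not called (adjusted p = 0.136 and 0.219). The difference of the drug effects between the lines was -0.72 ± 0.11 (adjusted p = 1.22e-05), negative at 23 of 26 time points. It was -0.21 (adjusted p = 0.0228) after normexp background correction. For both SNAI genes, successive time points were not independent, since the differences of neighbouring time points correlated with coefficients of 0.60 to 0.79 in PC9 and of 0.73 to 0.75 in PC9M2. With only time points 3 h apart, the differences between the lines in the drug effect were -1.16 for SNAI1 (adjusted p = 0.0109) and -0.92 for SNAI2 (adjusted p = 0.0178).

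**Figure D1:**
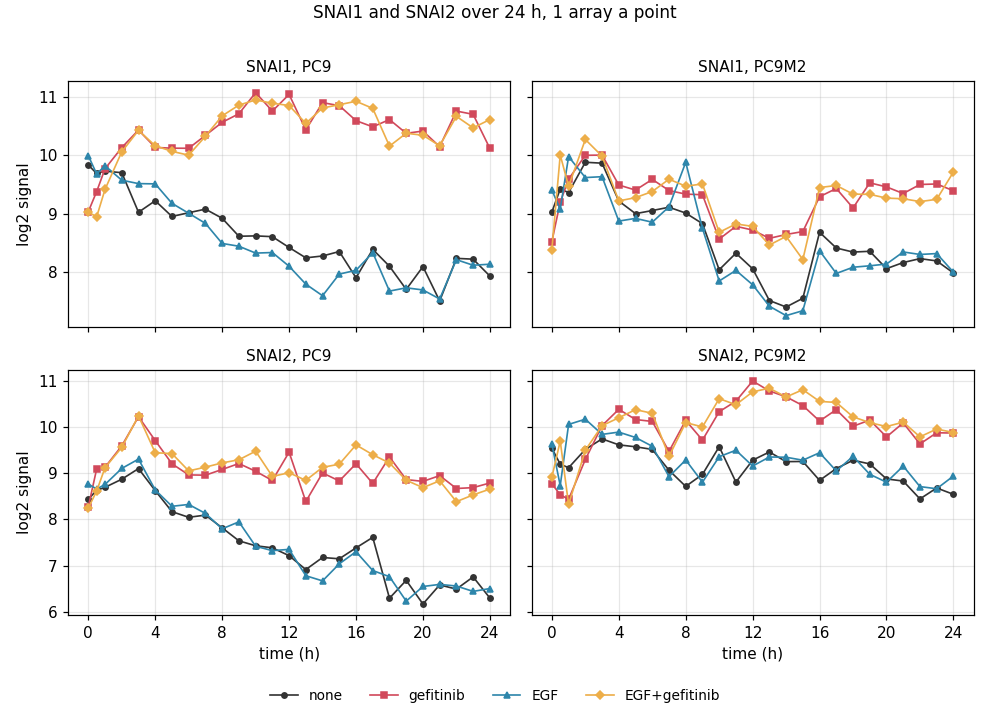
Log2 signal (y axis) of SNAI1 (top) and SNAI2 (bottom) against time in hours (x axis) in PC9 (left) and PC9M2 (right), with 1 array per point and a line for each of the 4 treatments. The courses with gefitinib (squares and diamonds) come to lie above those without it, most in PC9, where untreated SNAI2 fell to 6.30 at 24 h against 8.79 with gefitinib.

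Within scan days, which held 1 to 4 time points each, the SNAI1 difference with gefitinib ranged from -0.16 to 2.55 over the 8 days of PC9 and from -0.12 to 1.33 over the 9 days of PC9M2. The lowest value in each line came from the day that held the 0 h samples. For SNAI2 these ranges were 0.36 to 2.40 and -0.68 to 1.41. Since RNA is measured per sample, fewer cells that express a gene and less of its RNA per cell cannot be told apart here.

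TWIST1 (probe A_23_P71067), a basic helix-loop-helix factor of mesoderm and of metastasis, was higher in PC9M2 throughout. Without treatment it ran from 5.96 through a median of 6.80 to 7.40 in PC9 and from 7.30 through 7.72 to 8.27 in PC9M2. The ranges of the courses touched, but PC9M2 was higher at each of the 26 time points under each of the 4 treatments. The mean differences were 0.96 ± 0.07 without treatment (1.95-fold; adjusted p = 7e-13), 1.09 ± 0.10 with gefitinib, 0.89 ± 0.07 with EGF and 0.93 ± 0.08 with both. EGF raised it by 0.22 ± 0.05 in PC9, at 21 of 26 time points, and by 0.15 ± 0.04 in PC9M2, at 20 of 26 (adjusted p = 0.000699 and 0.0069). These rises were not called when the courses were compared unpaired (adjusted p = 0.396 and 1). With EGF present, gefitinib lowered it by similar amounts in the 2 lines, -0.36 ± 0.07 and -0.33 ± 0.05 (adjusted p = 1.42e-05 and 1.29e-06). Without EGF the gefitinib difference was -0.17 ± 0.07 in PC9 (adjusted p = 0.0327), which turned to 0.02 after scaling to the 75th percentile, and -0.04 ± 0.06 in PC9M2 (adjusted p = 0.57). A second TWIST1 probe was well above background on only 3 arrays.

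ZEB1 and ZEB2, zinc finger repressors of CDH1, gave signals near background by the 1 probe that each had. Over all 8 courses, of 26 arrays each, the ZEB1 probe was well above background on 11 arrays and the ZEB2 probe on 1, and their medians per course were 1.87 to 2.79 and 2.54 to 2.74. CDH2, the N-cadherin gene that often replaces CDH1 in mesenchymal cells, was well above background on 2 arrays, with course medians of 2.28 to 2.39. These 3 genes were not tested, and no fold is given for them. Each had only 1 probe, so a probe that works poorly and little RNA cannot be told apart. The other 7 passed the filter of at least 13 of 26 arrays of a course well above background.

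VIM (probe A_23_P161190), the gene of the intermediate filament vimentin, was lower in the resistant line and fell late under gefitinib in both lines. Without treatment it ran from 12.76 through a median of 13.54 to 14.50 in PC9 and from 11.33 through 12.44 to 13.21 in PC9M2. The ranges overlapped, but at each matched time point and under each treatment PC9M2 was the lower of the 2. The mean differences were -1.28 ± 0.08 without treatment (2.42-fold lower; adjusted p = 4.79e-14), -1.13 ± 0.10 with gefitinib, -0.98 ± 0.08 with EGF and -1.21 ± 0.11 with both. A second VIM probe gave -1.27 ± 0.08 without treatment (adjusted p = 9.95e-15). Thus the classical mesenchymal filament gene and the factors SNAI2 and TWIST1 differed between the lines in opposite directions.

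With gefitinib, VIM ran from 11.89 through 13.02 to 13.56 in PC9 and from 10.82 through 11.83 to 12.90 in PC9M2. In untreated PC9 the level went from 13.12 at 0 h to 14.06 at 24 h, whereas with gefitinib it went from 12.95 to 11.89. The drug courses lay below the untreated ones at every time point from 13 h on in PC9 and from 14 h on in PC9M2, and crossed them before. The mean differences were -0.53 ± 0.14 in PC9 and -0.39 ± 0.16 in PC9M2 (adjusted p = 0.00164 and 0.0339). Over 17 to 24 h they reached -1.42 and -1.27. The slopes were -0.07 ± 0.01 and -0.08 ± 0.02 per hour (adjusted p = 3.42e-05 and 0.000205). The differences of neighbouring time points correlated with coefficients of 0.71 in PC9 and 0.70 in PC9M2. In PC9 the mean difference was not called with time points 3 h apart (-0.47, adjusted p = 0.125) or over the first 13 (-0.04, adjusted p = 0.741). In PC9M2 it was not called for the second probe (-0.35, adjusted p = 0.0607), without the 3 time points named above (-0.29, adjusted p = 0.0984) or with scan day as a block (-0.37, adjusted p = 0.0683). Nor was it called there with time points 3 h apart (-0.58, adjusted p = 0.0943). EGF alone gave 0.28 ± 0.10 for the first probe in PC9M2 (adjusted p = 0.0683) and raised the second by 0.32 ± 0.08 (adjusted p = 0.0153). The drug differences of the lines differed by 0.14 ± 0.12 for the first VIM probe (adjusted p = 0.376) and by 0.29 ± 0.10 for the second (adjusted p = 0.0293).

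FN1, the gene of the matrix protein fibronectin, rose with gefitinib in both lines by both of its probes that were well above background throughout. The probe of largest variance (A_24_P334130), which stands for the gene in the counts over all genes, was dim and was well above background on 112 arrays. It reached 13 of 26 arrays only in the 4 courses with gefitinib (14 to 22, against 8 to 12 without it), and so passed the filter through those courses alone. Its gefitinib differences are therefore given as values, and its place in the counts of members changed by gefitinib supports nothing. The probe printed on 10 spots (A_24_P119745) and a further probe printed once (A_24_P85539) were so on every array, and belong to a different RefSeq transcript. By the 10-spot probe, FN1 ran from 8.67 through a median of 9.43 to 10.25 in untreated PC9 and from 9.30 through 10.06 to 10.94 with gefitinib. In PC9M2 it ran from 8.56 through 9.49 to 10.71 without treatment and from 8.63 through 10.91 to 12.87 with gefitinib. All these courses overlapped, yet gefitinib was higher at every time point from 0.5 h on in PC9 and from 3 h on in PC9M2.

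The 10-spot probe gave gefitinib differences of 0.65 ± 0.07 in PC9 (adjusted p = 1.23e-09 over 29927 probes) and 1.28 ± 0.16 in PC9M2 (adjusted p = 4.4e-08). The further probe gave 0.69 ± 0.12 and 1.27 ± 0.18 (adjusted p = 1.25e-05 and 4.05e-07). With EGF present the 10-spot probe gave 0.45 ± 0.06 in PC9 and 1.09 ± 0.16 in PC9M2 (adjusted p = 4.11e-08 and 1.1e-06), while the further probe was not called in PC9, at 0.19 ± 0.09 (adjusted p = 0.0526), and gave 1.19 ± 0.17 in PC9M2. The dim probe had values of 0.63 in PC9 (n = 25, 1 spot being an outlier) and 1.14 in PC9M2, against 0.23 and 1.07 with a floor of 16. In PC9M2 the rise built up over the day, from 0.55 over 0 to 8 h to 2.11 over 17 to 24 h by the 10-spot probe, whose slope was 0.10 ± 0.01 per hour (adjusted p = 8.51e-09) there and 0.03 ± 0.01 in PC9 (adjusted p = 0.0039). The rise was larger in PC9M2 by 0.63 ± 0.13 for the 10-spot probe (adjusted p = 0.000601) and by 0.57 ± 0.19 for the further probe (adjusted p = 0.0238). The dim probe, at 0.55 ± 0.25, was not called (n = 25; adjusted p = 0.0898). EGF alone raised the 10-spot probe in PC9 by 0.23 ± 0.05 (adjusted p = 0.00229) and the further probe by 0.40 ± 0.10 (adjusted p = 0.00459), whereas the dim probe gave 0.04 ± 0.18 (adjusted p = 0.905).

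Whether FN1 differed between the untreated lines depended on the probe. The dim probe was higher in PC9M2 by 0.93 ± 0.22 (n = 25; adjusted p = 0.00053), but the 10-spot probe by 0.16 ± 0.15 (adjusted p = 0.367) and the further probe by 0.05 ± 0.22 (adjusted p = 0.856), neither of them called. Under EGF the dim probe was higher by 0.92 ± 0.19, whereas the further probe was lower, at -0.44 ± 0.16 (adjusted p = 0.0152). Under gefitinib, in contrast, FN1 was higher in PC9M2 by all 3 probes, at 1.43 ± 0.20 for the dim probe, 0.78 ± 0.21 for the 10-spot probe and 0.62 ± 0.23 for the further probe (adjusted p = 4.82e-07, 0.00232 and 0.0194).

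**Figure D2:**
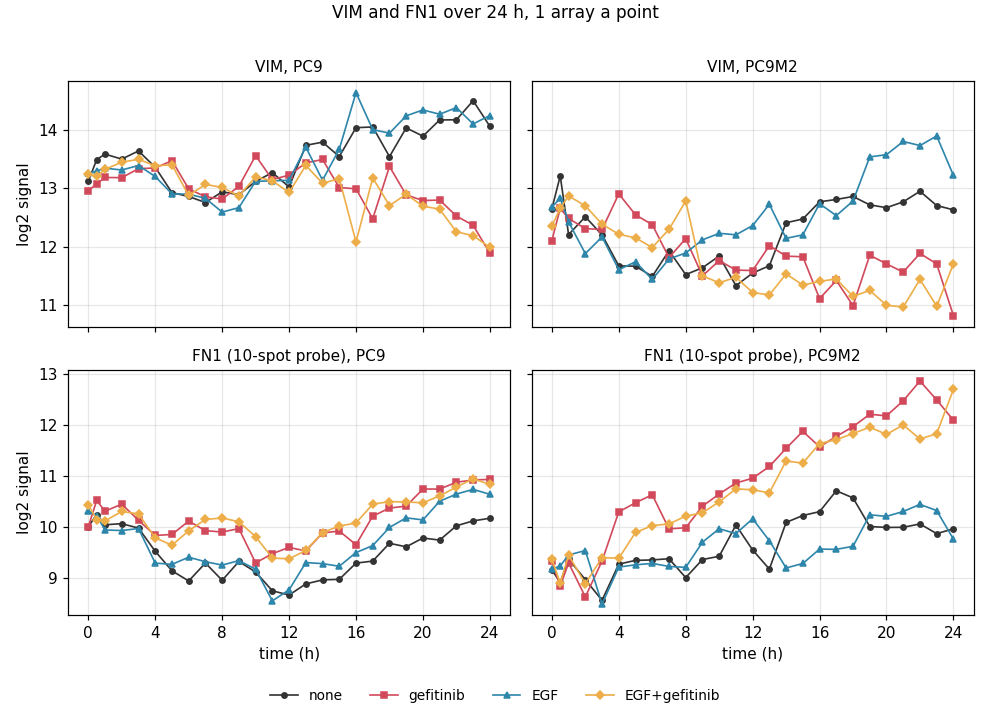
Log2 signal (y axis) of VIM (top) and of the 10-spot FN1 probe (bottom) against time in hours (x axis) in PC9 (left) and PC9M2 (right), with 1 array per point and a line per treatment. Late in both lines the gefitinib courses lie below the untreated ones for VIM and above them for FN1, by -1.42 and 0.85 over 17 to 24 h in PC9 and by -1.27 and 2.11 in PC9M2.

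CDH1 (probe A_23_P206359, 10 spots) was bright in both lines, with small differences between them over the whole course. It ran from 13.57 through a median of 14.12 to 14.60 in untreated PC9 and from 13.52 through 14.15 to 15.07 in untreated PC9M2, and was saturated on 2 arrays, both of PC9. The courses overlapped almost fully. The difference between the lines was 0.11 ± 0.08 without treatment (adjusted p = 0.223), -0.08 ± 0.08 with gefitinib (adjusted p = 0.387), 0.01 ± 0.06 with EGF (adjusted p = 0.895) and -0.18 ± 0.08 with both (adjusted p = 0.0351). After scaling to the 75th percentile the untreated difference was 0.20 and was called (adjusted p = 0.0311). Late under gefitinib CDH1 was lower in PC9M2, by -0.32 over the last 13 time points (adjusted p = 0.0141). In PC9 the CDH1 difference with gefitinib was -0.01 ± 0.07 over the whole course (adjusted p = 0.916). Over 17 to 24 h it was -0.17, and -0.25 with EGF present. Its slope in PC9, -0.0151 ± 0.009 per hour, was not called (adjusted p = 0.167). After scaling to the 75th percentile the slope was -0.0237 and was called (adjusted p = 0.0226).

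In PC9M2, CDH1 with gefitinib ran from 13.39 through 13.96 to 14.54 and overlapped the untreated course. The mean difference was -0.20 ± 0.09 (1.15-fold lower; adjusted p = 0.0474), and -0.20 ± 0.09 also with EGF (adjusted p = 0.0377). It was 0.16 over 0 to 8 h and -0.61 over 17 to 24 h, and it was negative at every time point from 13 h on. Its slope was -0.04 ± 0.01 per hour (adjusted p = 0.00452). Without the 3 time points named above the mean differences were -0.11 (adjusted p = 0.234) and -0.16 with EGF (adjusted p = 0.117), with a slope of -0.03 (adjusted p = 0.00321), and with time points 3 h apart the slope of -0.03 was not called (adjusted p = 0.184). The mean difference also lost its call with scan day as a block (adjusted p = 0.123, and 0.0593 with EGF) and with time points 3 h apart (0.253, and 0.18 with EGF). Without EGF it lost it too with the deposited normalized table (adjusted p = 0.0558) and with no filter on dim probes (0.0598). The difference of the drug effects between the lines, -0.19 ± 0.09, was not called (adjusted p = 0.118).

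CTNNA1, the gene of α-catenin, which links the cadherin complex to actin, was lower in PC9M2 by 1 of its 2 probes. The probe of larger variance (A_24_P80633) ran from 10.56 through a median of 11.12 to 11.86 in untreated PC9 and from 9.79 through 10.72 to 11.39 in PC9M2. Although the ranges overlapped, PC9M2 was lower at 20 of 26 time points, by -0.48 ± 0.11 (1.40-fold lower; adjusted p = 0.000457). The other probe (A_23_P58647) ran from 10.77 through 10.99 to 11.62 and from 10.44 through 10.91 to 11.73, with a difference of -0.16 ± 0.08 that was not called (adjusted p = 0.0864). Under EGF both probes were lower in PC9M2, at -0.55 ± 0.10 and -0.24 ± 0.07 (adjusted p = 2.67e-05 and 0.00374). With gefitinib the first probe was lower by -0.30 ± 0.13 (adjusted p = 0.036), but at only 14 of 26 time points. With both agents it gave -0.20 ± 0.11 (adjusted p = 0.101). The other probe gave -0.06 and -0.13 there (adjusted p = 0.376 and 0.0976). With time points 3 h apart, the first probe's untreated difference of -0.60 was not called (adjusted p = 0.0519). Gefitinib left CTNNA1 in PC9 at a difference of 0.10 ± 0.09 (adjusted p = 0.337) and raised the first probe in PC9M2 by 0.27 ± 0.10 (adjusted p = 0.0133), where the other probe gave 0.08 ± 0.06 (adjusted p = 0.205). The first probe's rise lost its call when scan days were fitted as blocks (0.27, adjusted p = 0.0774) or time points lay 3 h apart (0.29, adjusted p = 0.112), and was -0.03 over the last 13. With EGF present, gefitinib raised that probe in PC9M2 by 0.32 ± 0.06, at 23 of 26 time points (adjusted p = 2.33e-05). The other probe then gave 0.10 ± 0.05 and was not called (adjusted p = 0.0549).

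**Figure D3:**
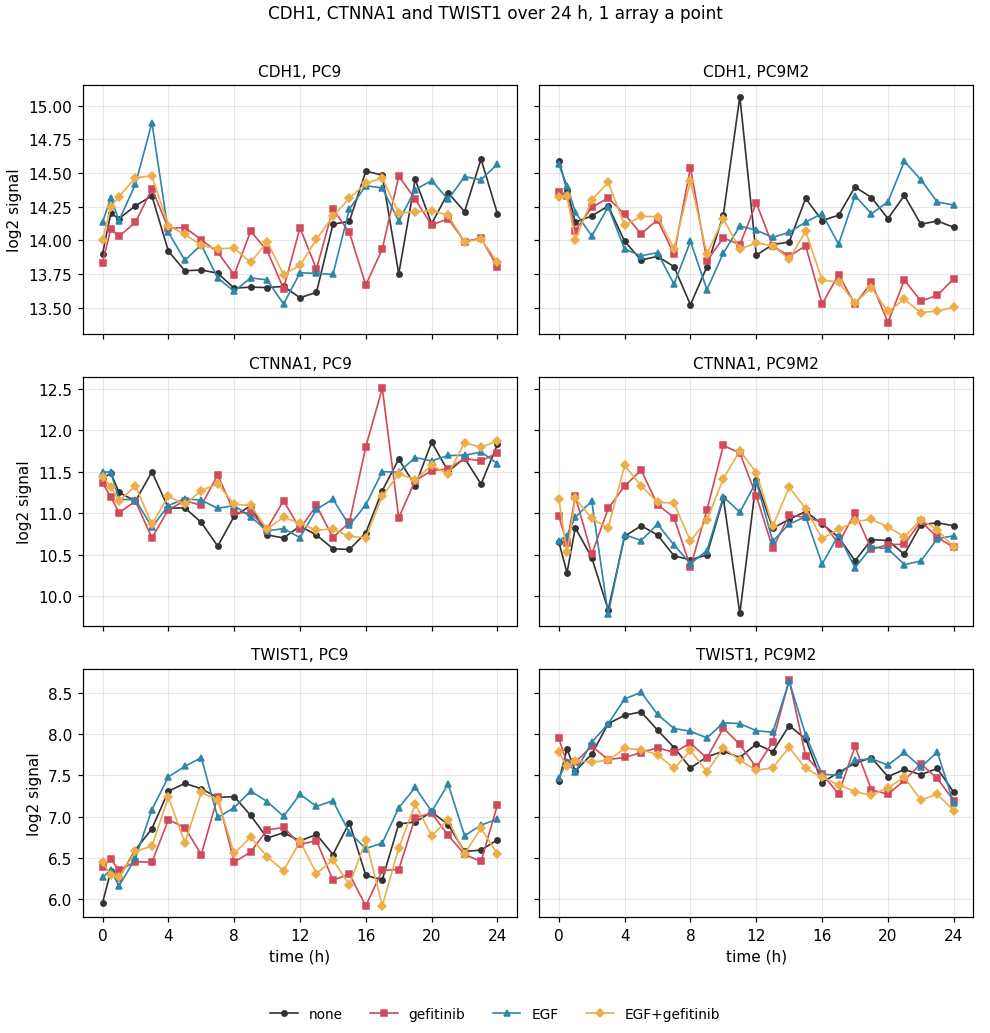
Log2 signal (y axis, a different range in each row) of CDH1, CTNNA1 and TWIST1 against time in hours (x axis) in PC9 (left) and PC9M2 (right), with 1 array per point and a line per treatment. TWIST1 lies higher in PC9M2 throughout, CDH1 with gefitinib lies lower late in PC9M2 (-0.61 over 17 to 24 h), and the untreated PC9M2 array at 11 h gave both the highest CDH1 level, 15.07, and the lowest CTNNA1 level of its course, 9.79.

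Many genes of the array differed in these comparisons, and the members' counts stand beside those of all genes. FN1 is counted by its dim probe, whose call between the lines without treatment and with EGF, and whose missing call in the drug effect, are not those of its bright probes. In the comparison of the lines, 5 of the 7 tested members were called without treatment (3 higher and 2 lower in PC9M2), where 68.1% of all tested genes were. The counts were 6 with gefitinib (64.9% of all genes), 5 with EGF (69.8%) and 6 with both (67.7%), with SNAI1 entering the list under gefitinib at -1.14 ± 0.13 and under both agents at -1.12 ± 0.16 (adjusted p = 1.31e-08 and 3.09e-07). Without gefitinib its differences between the lines were -0.05 ± 0.09 and, with EGF, -0.01 ± 0.10 (adjusted p = 0.658 and 0.942). SNAI2 was higher in PC9M2 under each treatment, by 1.63 ± 0.14 without treatment, 0.91 ± 0.14 with gefitinib, 1.75 ± 0.14 with EGF and 1.00 ± 0.12 with both. Its untreated difference was positive at 26 of 26 time points.

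Gefitinib changed 5 of the 7 members in PC9 (72.3% of all tested genes) and 6 of 7 in PC9M2 (66.7%). In EGF-treated cells it changed 5 of 7 in PC9 (78.9%) and 7 of 7 in PC9M2 (74.5%). In PC9, 3 members had a difference that changed with time (52.2% of all genes), SNAI1 and SNAI2 upward and VIM downward. In PC9M2 there were 5 (41.1%), with CDH1 downward and FN1 upward besides, the latter at 0.10 ± 0.02 per hour for its dim probe, which was not called in PC9. EGF alone changed 1 member, TWIST1, in PC9 (25.6% of all genes) and in PC9M2 (9.13%), beside the probes of FN1 and VIM given above that do not enter this count. On top of gefitinib, EGF changed none of the 7 in PC9 (0.0452% of all genes) or in PC9M2 (3.21%) by limma. In PC9M2, SNAI2 gave 0.13 ± 0.05 (adjusted p = 0.169) and TWIST1 gave -0.14 ± 0.04 (adjusted p = 0.0502), neither of them called.

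**Figure D4:**
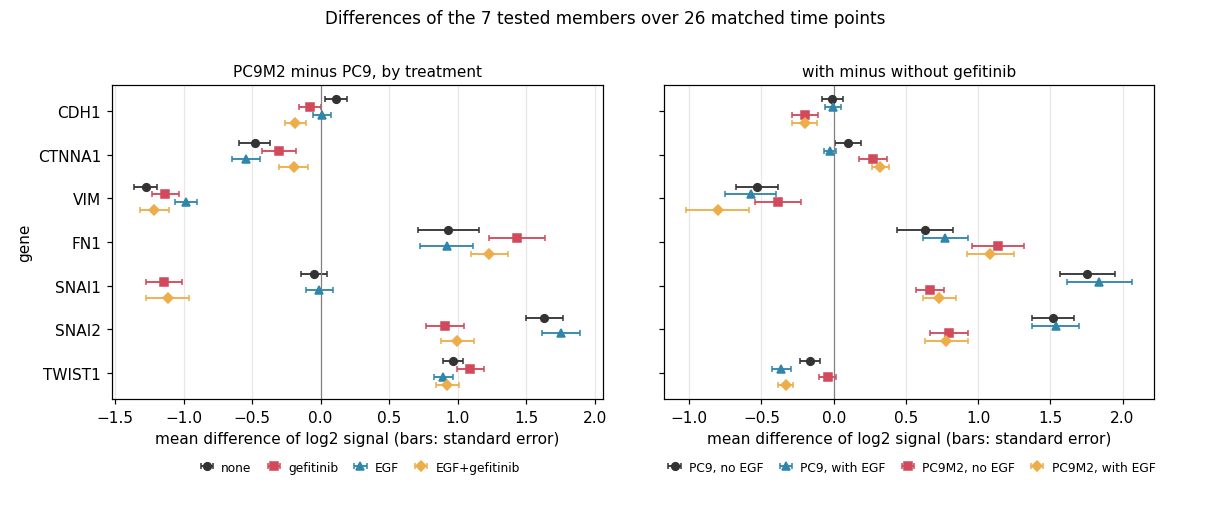
Mean differences of log2 signal over 26 matched time points (x axis; bars are standard errors) for the 7 tested genes (y axis), between the lines under each treatment (left) and with minus without gefitinib in each line (right). FN1 is plotted for its dim probe and the SNAI1 differences between the lines are -1.14 and -1.12 with gefitinib and -0.05 and -0.01 without it.

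Over time the members moved even where no agent was given. A smooth curve fitted all 7 better than a constant in untreated PC9 (66.3% of all genes), 4 in PC9 with gefitinib (77.8%), and 7 each with EGF (78.8%) and with both (83.1%). In PC9M2 the counts were 4 without treatment (67.2%), 6 with gefitinib (63.7%), 5 with EGF (74.9%) and 6 with both (67.7%). In untreated PC9 the fitted curve of SNAI2 spanned 2.43 and that of SNAI1 1.86, both with their top at 0 h (adjusted p = 3.84e-09 and 1.39e-09), and in untreated PC9M2 they spanned 1.00 and 1.67 with their top at 3 h. TWIST1 in untreated PC9 rose to a top at 6 h, with a span of 1.36 (adjusted p = 2e-05). Neighbouring time points were mostly scanned on the same day, so that time and scan day within a course cannot be told apart. With scan day as a block, 2 members were called in PC9 with gefitinib, 3 in PC9 with both agents and 2 in untreated PC9M2.

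Across all arrays, which share 2 lines and 8 courses, some members varied together and others did not. VIM and SNAI2 had a correlation of -0.73, and of -0.37 after the mean of each course was removed. CDH1 and VIM, markers of opposite states, varied in the same direction at 0.47 and 0.60 within courses. SNAI1 and SNAI2 had 0.36 and 0.42. Between CDH1 and its repressors the correlations were close to 0, at -0.08 for SNAI1 and -0.11 for SNAI2.

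The genes most like each member by the correlation over all arrays came from many functions, and most values fell once course means were removed. For SNAI1 they were LCK, a Src family kinase (0.90, and 0.75 within courses), TARBP2, a partner of Dicer (0.90 and 0.80), and EPHB3, a receptor of ephrins (0.89 and 0.77). SNAI2 was most like BRWD1 (0.92 and 0.76), ZMYM1 (0.92 and 0.75) and TTC8 (0.91 and 0.75). TWIST1 was followed by L3MBTL3 (0.88 and 0.63), PAQR5 (0.88 and 0.54) and the receptor tyrosine kinase AXL (0.86 and 0.42), and both TWIST1 and AXL differed between the lines. VIM lay closest to CXorf38 (0.87 and 0.68), IL20RB (0.86 and 0.66) and KLHDC10 (0.86 and 0.64), and the dim FN1 probe to MROH8 (0.76 and 0.51), LMNTD2 (0.73 and 0.47) and WWC3 (0.71 and 0.46). CDH1 went with DDX43 (0.69 and 0.66), ADAM9 (0.61 and 0.62) and PTPRR (0.60 and 0.58), with little difference between the measures. CTNNA1 went with MBTPS1 (0.82 and 0.81) and RNF20 (0.81 and 0.78).

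Other genes of the transition gave the members their setting. Their counts stand beside the shares of all tested genes that were called. These were 72.3% for gefitinib in PC9, 66.7% for gefitinib in PC9M2 and 68.1% between the untreated lines. Of 18 epithelial adhesion and polarity genes, all tested, gefitinib raised 11 and lowered 4 in PC9 (median 0.33, against -0.02 over all genes) and raised 10 and lowered 0 in PC9M2 (median 0.27, against -0.01). DSP, the desmosomal plaque gene desmoplakin, rose by 1.56 ± 0.17 in PC9 and 0.91 ± 0.09 in PC9M2, and the claudin genes CLDN3 by 1.42 ± 0.11 in PC9 and CLDN1 by 1.24 ± 0.10 in PC9M2. EPCAM and the polarity gene CRB3 fell in PC9, at -0.47 ± 0.09 and -0.41 ± 0.11. Between the untreated lines 3 of the 18 were higher and 8 lower in PC9M2 (median -0.19, against -0.05 over all genes). Under gefitinib 3 were higher and 10 lower in PC9M2 (median -0.37, against -0.03), where 64.9% of all tested genes were called. Of 9 epithelial transcription and splicing factors, 8 were tested, and gefitinib raised 6 and lowered 1 in PC9 and raised 7 and lowered 0 in PC9M2. ELF3 rose by 3.08 ± 0.18 and 2.30 ± 0.12 and OVOL2, a repressor of mesenchymal programs, by 0.96 ± 0.12 and 1.09 ± 0.08, while OVOL1 fell in PC9, at -0.69 ± 0.19.

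The mesenchymal and matrix genes split. Of 23 listed, 15 were tested, and gefitinib raised 7 and lowered 7 in PC9 (median 0.02) and raised 6 and lowered 4 in PC9M2 (median 0.09). SPARC and TGFBI, both matrix genes like FN1, rose in PC9 by 2.13 ± 0.22 and 1.78 ± 0.14, and TPM2, a tropomyosin gene, rose in PC9M2 by 1.21 ± 0.11. TNC and THBS1 fell in PC9 (-2.16 ± 0.24 and -1.55 ± 0.09) and in PC9M2 (-0.45 ± 0.12 and -1.24 ± 0.08). Between the untreated lines 6 were higher and 5 lower in PC9M2, led by AXL at 3.47 ± 0.12 and TPM2 at 1.19 ± 0.09 on one side and by TAGLN at -1.58 ± 0.11 and SPARC at -0.91 ± 0.17 on the other.

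Among 8 other transition factors, 5 were tested. KLF8, a repressor of CDH1, rose with gefitinib by 1.84 ± 0.14 in PC9 (n = 25) and 0.80 ± 0.14 in PC9M2, with a difference between the lines of -1.01 ± 0.16 (adjusted p = 2.47e-05). SNAI3, the remaining SNAI gene, rose in PC9 by 0.67 ± 0.11, with a difference of -0.87 ± 0.13 (adjusted p = 5.04e-06). TCF4 and TCF3, E proteins that pair with TWIST1, fell with gefitinib by similar amounts in the lines, at -0.95 and -0.46 in PC9 and -0.74 and -0.46 in PC9M2, and TCF4 was higher in untreated PC9M2 by 2.04 ± 0.11 and TCF3 by 0.56 ± 0.08. Of 9 catenins and cadherin partners, 6 were tested, and 3 were higher and 0 lower in untreated PC9M2, where 68.1% of all tested genes were called. CTNNB1 was higher by 1.31 ± 0.16 and PCDH1 by 0.59 ± 0.11. Of 9 TGF-β ligands, receptors and SMADs, 8 were tested, of which gefitinib raised 2 and lowered 5 in PC9 and raised 1 and lowered 2 in PC9M2. TGFBR1 fell in both, at -1.52 ± 0.17 and -0.78 ± 0.09, and SMAD3 rose, at 0.47 ± 0.07 and 0.61 ± 0.07.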

How the data were processed

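Gene expression was measured on one-colour Agilent arrays of the whole human genome. The authors deposited signal intensities per array, background-subtracted by Agilent Feature Extraction (10.5.1.1 per the file headers, grid build hg18) and not normalized between arrays, and a table of the same intensities after quantile normalization, used here as an alternative. Intensities of non-control spots were quantile normalized over all arrays, as the methods state, set to at least 1 and converted to log2, with spots flagged as outliers (0.263%) removed and spots of a probe averaged. Probes were named through their RefSeq accession (24794 of 41000 matched; table assembly GRCh38.p14). Of several probes of a gene, the one of largest variance stood for it. It was tested when well above background on at least 13 of 26 arrays of a course, which kept 13263 genes.

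Differences at matched time points were tested with limma (3.58.1 in R 4.3.3), two-sided except in a one-sided alternative, and change over time with its F-test of a natural spline, both with Benjamini-Hochberg adjustment at 0.05 over all tested genes. The other probes of members were fitted over 29927 probes, an alternative chosen after seeing the data, as was leaving out 3 time points. The code was tested on simulated data with independent noise on each array, which does not cover the correlated time points of these courses. Named genes were all members, the 3 most correlated genes of each, and the 2 largest rises and falls per list described. Some genes that this rule names are not reported here. The members and lists were chosen with earlier results of these data known. Alternatives were 75th percentile scaling, normexp (on median signals, offset 50), the deposited table, other probe rules, filters, a floor of 16, subsets of time points, unpaired courses, scan-day blocks, other splines and the methods' t-test. The number of arrays limits the precision. No sample was left out.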

Additional observations from a re-analysis of the deposited data

Results flagged for a closer look

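Among the 7 tested members, the gefitinib difference differed between PC9M2 and PC9 for 2 genes by the test of the difference itself. It was lower in PC9M2 by -1.09 ± 0.12 for SNAI1 (limma, adjusted p = 1.22e-07), with drug differences of 1.76 in PC9 and 0.67 in PC9M2. For SNAI2 it was lower by -0.72 ± 0.11 (adjusted p = 1.22e-05), with drug differences of 1.52 and 0.80. Each was lower in PC9M2 at 23 of 26 time points. FN1 was not called by the dim probe that stands for it (0.55, adjusted p = 0.0898), but was by its 2 other probes, at 0.63 and 0.57 (adjusted p = 0.000601 and 0.0238). VIM was called by its second probe (0.29, adjusted p = 0.0293) and not by the first (0.14, adjusted p = 0.376).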

How the results depend on the processing

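The code was rerun under each alternative for every member and comparison, which gave 2077 values: 1938 kept direction and call, 97 lost the call, 32 gained it and 10 turned. The SNAI1 and SNAI2 differences in drug effect between the lines stayed called under every alternative run, from -0.81 to -1.37 and from -0.21 to -0.92. Neither gene has a further probe, so the probe rules, filters and floor left these values unchanged and say little. Scan-day blocks were not fitted for this comparison. The tests paired the courses by time point, the only number that courses share, and unpaired courses were an alternative. Depth set no limit here, but CDH2, ZEB1 and ZEB2 were too dim to test, and the causes of the changes below were not tested.

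The counts of members called, of 7 tested, that moved by over 1.5 times were these. A one-sided test for higher levels in PC9M2, and the methods' t-test run one-sided after Benjamini-Hochberg adjustment, called 3 in each line comparison, where 5, 6, 5 and 6 were called without treatment, with gefitinib, with EGF and with both. For gefitinib in PC9, 3 instead of 5 were called with time points 3 h apart, with the first 13, with the last 13 and with scan day as a block. In PC9M2, 3 instead of 6 were called 3 h apart and with scan day as a block, and 2 with the first 13 time points. With EGF present, 3 instead of 7 were called in PC9M2 over the first 13. For EGF alone in PC9, 2 instead of 1 were called with 75th percentile scaling and with the probe of highest mean, and 0 with the mean of all probes, 3 h apart, over the first 13 and unpaired. In PC9M2 it was 0 in the last 3 of these settings and 2 over the last 13. For EGF on top of gefitinib in PC9M2, 1 instead of 0 was called with the probe of highest mean, the mean of all probes, the stricter filter, a floor of 16 and the scan-day block. For change over time, the scan-day block called 2 instead of 4 in PC9 with gefitinib, 3 instead of 7 with both agents and 2 instead of 4 in untreated PC9M2.

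FN1 lost its call between the untreated lines with normexp, the probe of highest mean, the mean of all probes and the last 13 time points, and gained one for the drug effect between lines with normexp (0.15), the probe of highest mean (0.63), the mean of all probes (0.61), a floor of 16 (0.88) and the last 13 (1.12). Most values that turned did so over the first 13 time points. There the gefitinib difference in PC9M2 was 0.0255 for CDH1 and 0.20 for VIM, with EGF present it was 0.13 for CDH1 and 0.14 for VIM, and in PC9 with EGF it was 0.13 for VIM. The line difference was 0.0045 for CTNNA1 with gefitinib and 0.0875 for CDH1 with both. The others were FN1 between the lines under EGF with the probe of highest mean (-0.10), TWIST1 with gefitinib in PC9 after 75th percentile scaling (0.0182) and CTNNA1 with gefitinib in PC9M2 over the last 13 (-0.0279). Without the 11, 16 and 18 h time points, the calls lost were CDH1 between the lines with both agents (-0.16), TWIST1 with gefitinib in PC9 (-0.15), and CDH1 (-0.11), VIM (-0.29) and, with EGF, CDH1 (-0.16) with gefitinib in PC9M2, while the CTNNA1 trend in PC9M2 became called (-0.03).

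Over all genes, the line comparisons called 9033, 8614, 9260 and 8980, against 4091, 4043, 4330 and 4151 one-sided and 4054, 4011, 4310 and 4116 by the methods' t-test. Time points 3 h apart called 5887 without treatment, 5734 with EGF and 5723 with both. EGF in PC9 called 3395, against 548 at 3 h apart, 1855 and 2004 over the first and last 13 and 400 unpaired, and in PC9M2 1211 against 14, 84 and, unpaired, 89. EGF on gefitinib in PC9 called 6, against 0 under 6 alternatives, 3 with the mean of all probes and 21 without the 3 time points, and in PC9M2 426 against 117, 0, 0 and 203. Gefitinib in PC9M2 called 8848 against 5415 over the first 13, the trends 6927 and 5446 against 3203 and 2733, and the drug effect between lines 4507 against 1037 at 3 h apart, 1063 over the first 13 and 2025 unpaired. With scan day as a block, change over time called 6814 instead of 11027 in PC9 with both, and in PC9M2 5152, 3557, 6369 and 4547 instead of 8911, 8445, 9940 and 8985.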
